A study of Danio rerio with 2 samples.

Results

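Secreted hormones enter the endoplasmic reticulum (ER) as nascent chains, and 41 genes of the machinery that receives, cuts, glycosylates and folds them were followed across the cells of the zebrafish pituitary. The members came from a list of 43 gene symbols covering ER translocation, folding and the unfolded protein response, and every symbol listed in the deposited gene table in the same spelling was kept, 41 of 32057 listed genes. Of the 2 symbols left over, ern1 was not found in this spelling, and eif2ak3 was found only in capitals as EIF2AK3, which is given below but not counted. The rule used no measured value.

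The study compared pituitaries of 6-month-old male zebrafish of the AB strain, either wild type (WT) or cck1-/-;cck2-/- (CCK1/2-KO), which carry CRISPR/Cas9 mutations in both cholecystokinin genes throughout the body and came from crossing the single mutants. Each genotype was 1 droplet library from 30 pooled fish, so no test across fish was possible, cells were not treated as replicates, and all intervals are 95% intervals of counting error only. After filtering, 4858 WT and 3452 CCK1/2-KO cells remained, with medians of 886 and 978 UMIs (unique molecular identifiers, 1 for each captured transcript). Clusters were sorted into hormone cells (600 WT and 343 CCK1/2-KO), mesenchymal-like cells (149 and 217) and non-secretory cells (690 and 594). Of the mesenchymal-like cells, 121 and 194 were in a cluster led by the collagen I gene col1a2 and the rest in a cluster led by MSMP. The non-secretory class held endothelial-like, T or NK cell-like, myeloid-like, pituicyte or glial-like, oligodendrocyte-like and neutrophil-like clusters. Red blood cell-like clusters held 2335 and 1699 cells and stayed apart. Apart from the gh1 cluster described next, the unnamed clusters and the smallest ones entered no class.

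The hormone class consisted of 4 clusters, taken by the hormone genes they carried: a gh1 cluster (growth hormone), a prl and tshba cluster (prolactin, thyrotropin and somatolactin genes), a pomca cluster (proopiomelanocortin) and a gonadotrope-like cluster (lhb, fshb and cga). In WT and CCK1/2-KO they held 176 and 173, 169 and 84, 145 and 66, and 110 and 20 cells, so the make-up of the class differed between the libraries. On listed cell type markers alone, the pomca cluster was named neuron, with 7 markers detected (elavl4, gad2, snap25a, snap25b, stmn2a, stxbp1a and syt1a). The gh1 cluster stayed unnamed on those markers. The type it came nearest to was also neuron, with only 2 detected markers (stxbp1a and syt1a). Hormone cells were deeper (median 11128.5 and 13318 UMIs) than mesenchymal-like cells (6699 and 4999) and non-secretory cells (2686 and 3699.5). Levels are therefore given as UMIs per 1000000 summed UMIs of a class or cluster (CPM), with hormone genes left out of the total, because those genes made up 17.8% of the UMIs of WT and 11.8% of CCK1/2-KO hormone cells. The reads come from transcript ends, and levels of different genes are not ranked against each other.

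In the textbook account, the signal recognition particle brings a ribosome to the Sec61 channel, signal peptidase removes the signal peptide and oligosaccharyltransferase attaches sugars to the chain. Chaperones and disulphide isomerases then fold it. When unfolded protein builds up, the sensors Ire1 (ern1), Perk (eif2ak3) and Atf6 raise the folding capacity through Xbp1, Atf4 and cleaved Atf6, and prolonged stress brings in the transcription factor Chop (ddit3). Creb3l1 and Creb3l2 are membrane-bound factors related to Atf6 and are known for roles in secretory cells, among them collagen-producing cells.

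The summed level of all members in hormone cells was 9698 CPM in WT and 10998 in CCK1/2-KO, against 6116 and 6290 in mesenchymal-like cells and 5612 and 4832 in non-secretory cells. The gh1 cluster stood highest of the hormone clusters, at 12630 and 13257. The gonadotrope-like cluster followed at 10452 and 10424, and the prl and tshba cluster (7750 and 7370) and the pomca cluster (7031 and 9350) exchanged places between the libraries. The lowest of the 6 non-secretory clusters was the oligodendrocyte-like one (3864 and 3570) and the highest the neutrophil-like one (8593 and 6573), where 1 WT cell held 784 of 1596 member UMIs and the WT level without it was 5718. Abundant members weigh most in these sums. sec61g was at 2592 and 2261 CPM in the gh1 cluster, against 1376 and 1548 in the gonadotrope-like cluster. xbp1 was at 1718 and 2253 against 614 and 813. Counted by member, the gh1 cluster was the highest hormone cluster for 17 and 16, and the gonadotrope-like cluster for 16 and 11.

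The first comparison asked which members were higher in hormone cells than in cells that do not specialise in secretion. All 41 members passed the minimum of 20 UMIs over the 2 classes in both libraries. In WT, 16 members were at least 2-fold higher in hormone cells and 1 was at least 2-fold lower, where 30.4% and 21.8% of all 15722 genes tested were. In CCK1/2-KO, 29 were higher and 1 lower, where 33.6% and 21.7% of all genes were. The median log2 ratio of the members was 0.69 in WT and 1.42 in CCK1/2-KO, against 0.28 and 0.40 over all genes. In both libraries at once, 15 members were higher and 0 lower, where 25.2% and 17.5% of all genes were.

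Those 15 members were calr, dnajc3a, manf, sdf2l1 and hyou1 among the chaperones, pdia3 and p4hb among the disulphide isomerases, spcs1, spcs2 and sec11a of the signal peptidase, srp14 and sec62 of the targeting machinery, and the factors xbp1, atf6 and creb3l1. On the point values alone, calr, spcs2, atf6, creb3l1 and hyou1 were higher in each of the 4 hormone clusters than in each of the 6 non-secretory clusters in both libraries. Such a complete separation was found for 5 of the 41 members and for 5.76% of all genes. The number of members at least 2-fold higher in both libraries was 9 when the clusters of a class were given equal weight, and 22 without the myeloid-like cluster, an alternative chosen after seeing the data. The shares of all genes under these settings are not given, so the counts show only how the calls move.

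**Figure D1:**
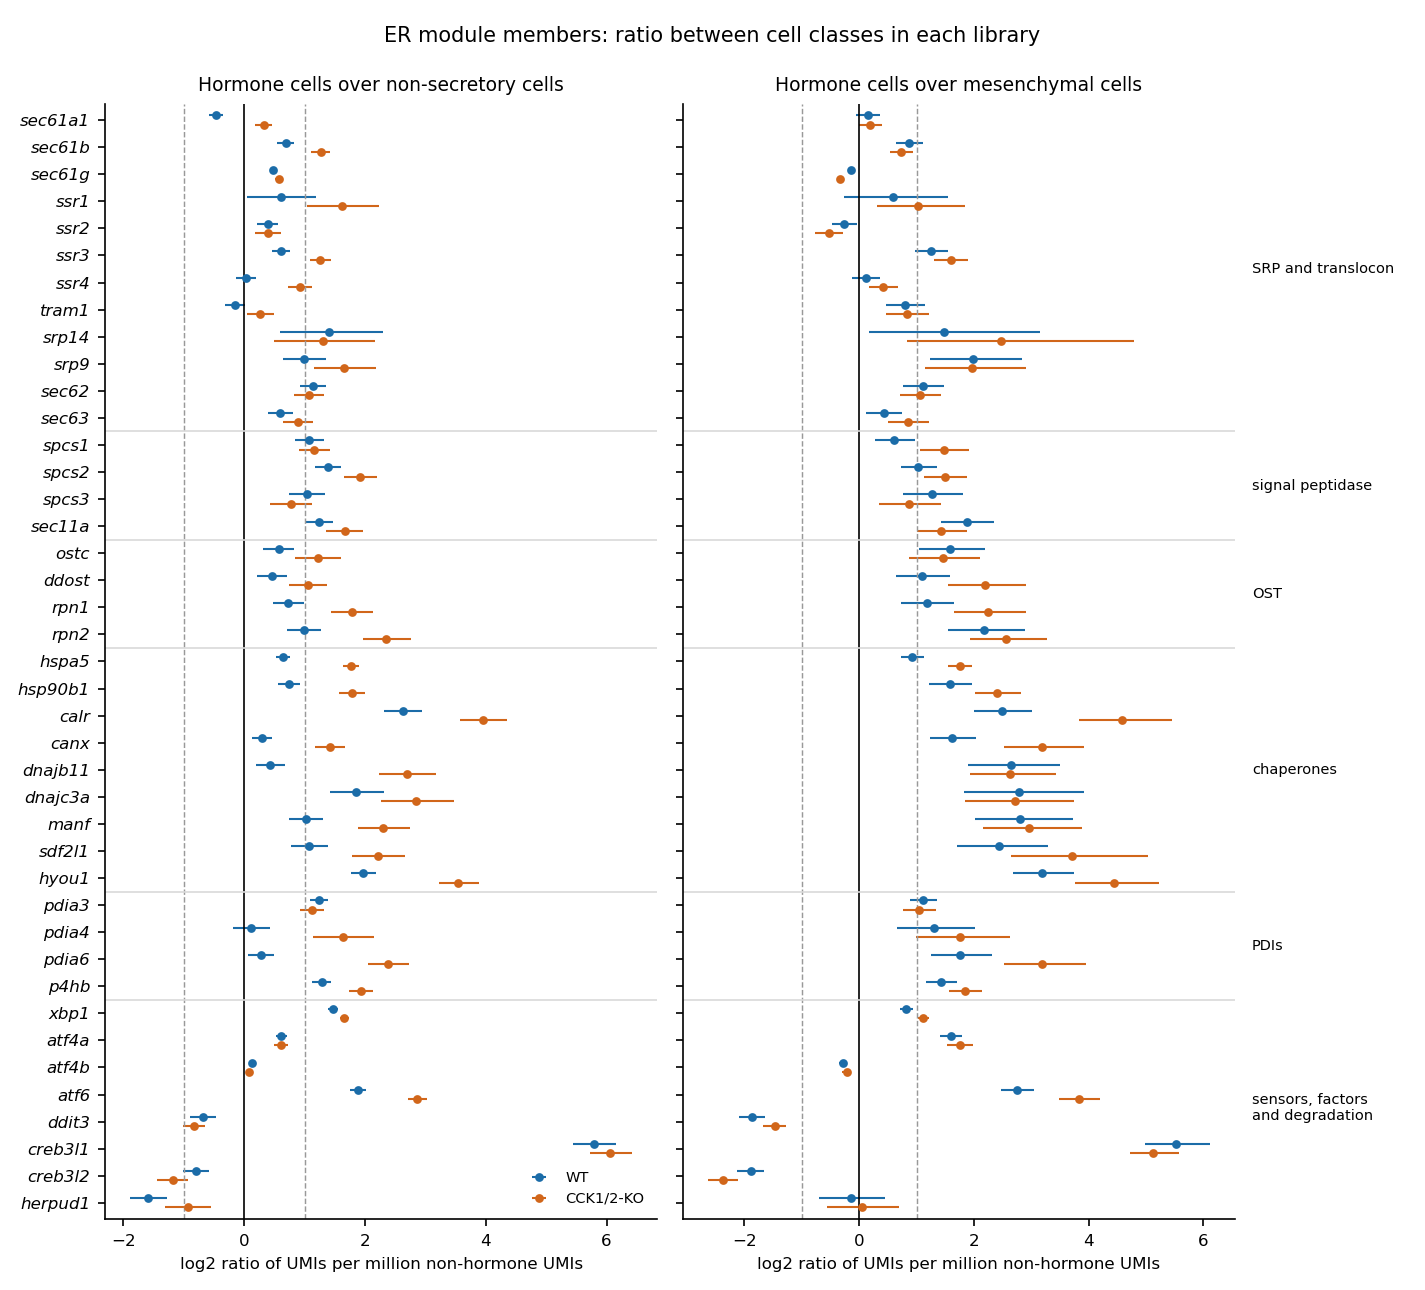
log2 ratio of each of the 41 members between hormone and non-secretory cells (left) and between hormone and mesenchymal-like cells (right), with 95% counting intervals; blue is WT, orange CCK1/2-KO, dashed lines mark 2-fold, and members are grouped by role. creb3l1 lies far to the right in both panels (5.79 and 6.06 on the left), while creb3l2, ddit3 and herpud1 lie left of 0 in the left panel.

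Of the 12 signal recognition particle and translocon members, 2 were at least 2-fold higher in hormone than non-secretory cells in both libraries: sec62, whose product assists entry of short and already finished chains, at 122 against 55.6 CPM in WT and 112 against 53.2 in CCK1/2-KO, and srp14, a small subunit of the signal recognition particle, which had a level of only 10.6 in WT hormone cells. The channel's main subunit gene sec61a1 was at 186 in WT hormone cells and 257 in WT non-secretory cells, a log2 ratio of -0.47 (-0.59 to -0.34), and at 217 and 174 in CCK1/2-KO, a log2 ratio of 0.32. Its direction thus turned between the libraries, and the cluster with its highest level was the myeloid-like one in both (467 and 379). The small subunit genes sec61b and sec61g had log2 ratios of 0.69 and 0.48 in WT and 1.27 and 0.57 in CCK1/2-KO. Among the translocon-associated ssr genes, ssr2 was near 0.39 in both libraries, while ssr1, ssr3 and ssr4 had larger ratios in CCK1/2-KO than in WT. tram1 was at -0.15 and 0.27.

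The 4 signal peptidase genes, spcs1, spcs2, spcs3 and sec11a, had log2 ratios of hormone to non-secretory cells of 1.08, 1.39, 1.04 and 1.24 in WT, all past 2-fold, and of 1.16, 1.92, 0.77 and 1.66 in CCK1/2-KO, where spcs3 fell short. spcs2 was at 147 CPM in WT and 134 in CCK1/2-KO hormone cells, against 56.1 and 35.3 in non-secretory cells. The oligosaccharyltransferase genes ostc, ddost, rpn1 and rpn2 had log2 ratios between 0.46 and 0.99 in WT, with 0 of 4 past 2-fold, and between 1.05 and 2.35 in CCK1/2-KO, with 4 of 4 past it. Between the libraries, the log2 ratio of CCK1/2-KO to WT of these 4 genes lay between -0.40 (ostc) and 0.27 (rpn2) in hormone cells and between -0.65 (ddost) and -1.09 (rpn2) in non-secretory cells. rpn2 was at 72.6 and 87.5 in hormone cells and at 36.5 and 17.1 in non-secretory cells.

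The 9 chaperones had a median log2 ratio of 1.02 in WT, close to the 1.16 of the signal peptidase, and of 2.30 in CCK1/2-KO, the highest of the 6 role groups there. calr encodes calreticulin, a lectin that holds glycoproteins during folding. Its level was 150 CPM in WT and 236 in CCK1/2-KO hormone cells, against 24.3 and 15.3 in non-secretory cells and 26.7 and 9.89 in mesenchymal-like cells. The log2 ratio of hormone to non-secretory cells was 2.62 (2.32 to 2.94) in WT and 3.95 (3.57 to 4.36) in CCK1/2-KO. hyou1, an ER chaperone that also exchanges the nucleotide of BiP, was at 222 and 262 in hormone cells against 56.8 and 22.4 in non-secretory cells, log2 ratios of 1.97 and 3.55.

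hspa5 encodes BiP, the central ER chaperone and the usual marker of the unfolded protein response. It was at 335 CPM in WT hormone cells and 518 in CCK1/2-KO hormone cells. In mesenchymal-like cells it was at 177 and 153, and in non-secretory cells at 215 and 152. Its log2 ratio of hormone to non-secretory cells was 0.64 (0.52 to 0.75) in WT, short of 2-fold, and 1.77 (1.64 to 1.90) in CCK1/2-KO. hsp90b1, the ER member of the Hsp90 family, gave 0.74 and 1.78 on the same scale, with levels of 150 and 218 in hormone cells. canx, the membrane-bound relative of calreticulin, had the smallest ratio of the group in both libraries (0.29 and 1.42).

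Among the disulphide isomerases, pdia3 behaved unlike the others. It encodes the isomerase that works with calreticulin and calnexin on glycoproteins. In the WT gonadotrope-like cluster it reached 1121 CPM (1057 to 1188), and in the other WT hormone clusters it was at 145 (gh1), 119 (pomca) and 79.7 (prl and tshba). In CCK1/2-KO the same clusters gave 750, 137, 106 and 128. The gonadotrope-like cluster thus stood apart from every other cluster in both libraries, and 90 of its 110 WT and 18 of its 20 CCK1/2-KO cells had at least 1 pdia3 UMI, although 1 CCK1/2-KO cell held 24.5% of the pdia3 UMIs there. Without the gonadotrope-like cluster, left out after seeing the data, the WT log2 ratio of pdia3 between hormone and non-secretory cells went from 1.24 to -0.06. p4hb, protein disulphide isomerase itself, was more even, at 263 and 278 in hormone cells against 108 and 72.9 in non-secretory cells.

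The sensors and transcription factors split most widely. creb3l1 was at 943 CPM in WT and 1214 in CCK1/2-KO hormone cells, against 20.6 and 34.6 in mesenchymal-like cells and 17.0 and 18.2 in non-secretory cells. All 4 hormone clusters were high, from 735 to 1153 in WT and from 733 to 1680 in CCK1/2-KO, and no cluster among the mesenchymal-like and non-secretory ones exceeded 53.8. The log2 ratio of hormone to non-secretory cells was 5.79 (5.45 to 6.16) in WT and 6.06 (5.72 to 6.43) in CCK1/2-KO, the largest among the members in each library. At least 1 creb3l1 UMI was found in 77.7% of WT hormone cells (74.1 to 80.9, Clopper-Pearson) and in 3.38% of WT red blood cell-like cells, which should lack the gene, at median depths of 11128.5 and 723 UMIs. At an equal depth of 1000 non-hormone UMIs the expected shares were 49.5% and 0.90%, and the share in WT non-secretory cells was 2.53%. The creb3l1 level in red blood cell-like cells was 13.1 CPM in WT and 16.0 in CCK1/2-KO. The non-secretory level thus lies near that of cells that should lack the gene, and the log2 ratios rest on that low level.

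creb3l2, its close relative, ran the other way. It was at 54.5 and 44.0 CPM in hormone cells, 202 and 228 in mesenchymal-like cells and 94.9 and 99.8 in non-secretory cells. The log2 ratio of hormone to mesenchymal-like cells was -1.89 (-2.13 to -1.65) in WT and -2.37 (-2.64 to -2.11) in CCK1/2-KO. Endothelial-like (146 and 167) and pituicyte or glial-like cells (201 and 159) also carried it. Among hormone cells the pomca cluster was the exception, with 165 and 118, and the remaining hormone clusters lay between 7.35 and 34. Of the UMIs of both genes together, creb3l1 made up 98.7% in the WT gh1 cluster (98.1 to 99.1), 84.5% in the WT pomca cluster and 12.0% in the WT mesenchymal-like cluster led by col1a2 (8.06 to 17.0), and in CCK1/2-KO the same clusters gave 97.8%, 93.5% and 13.1%.

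**Figure D2:**
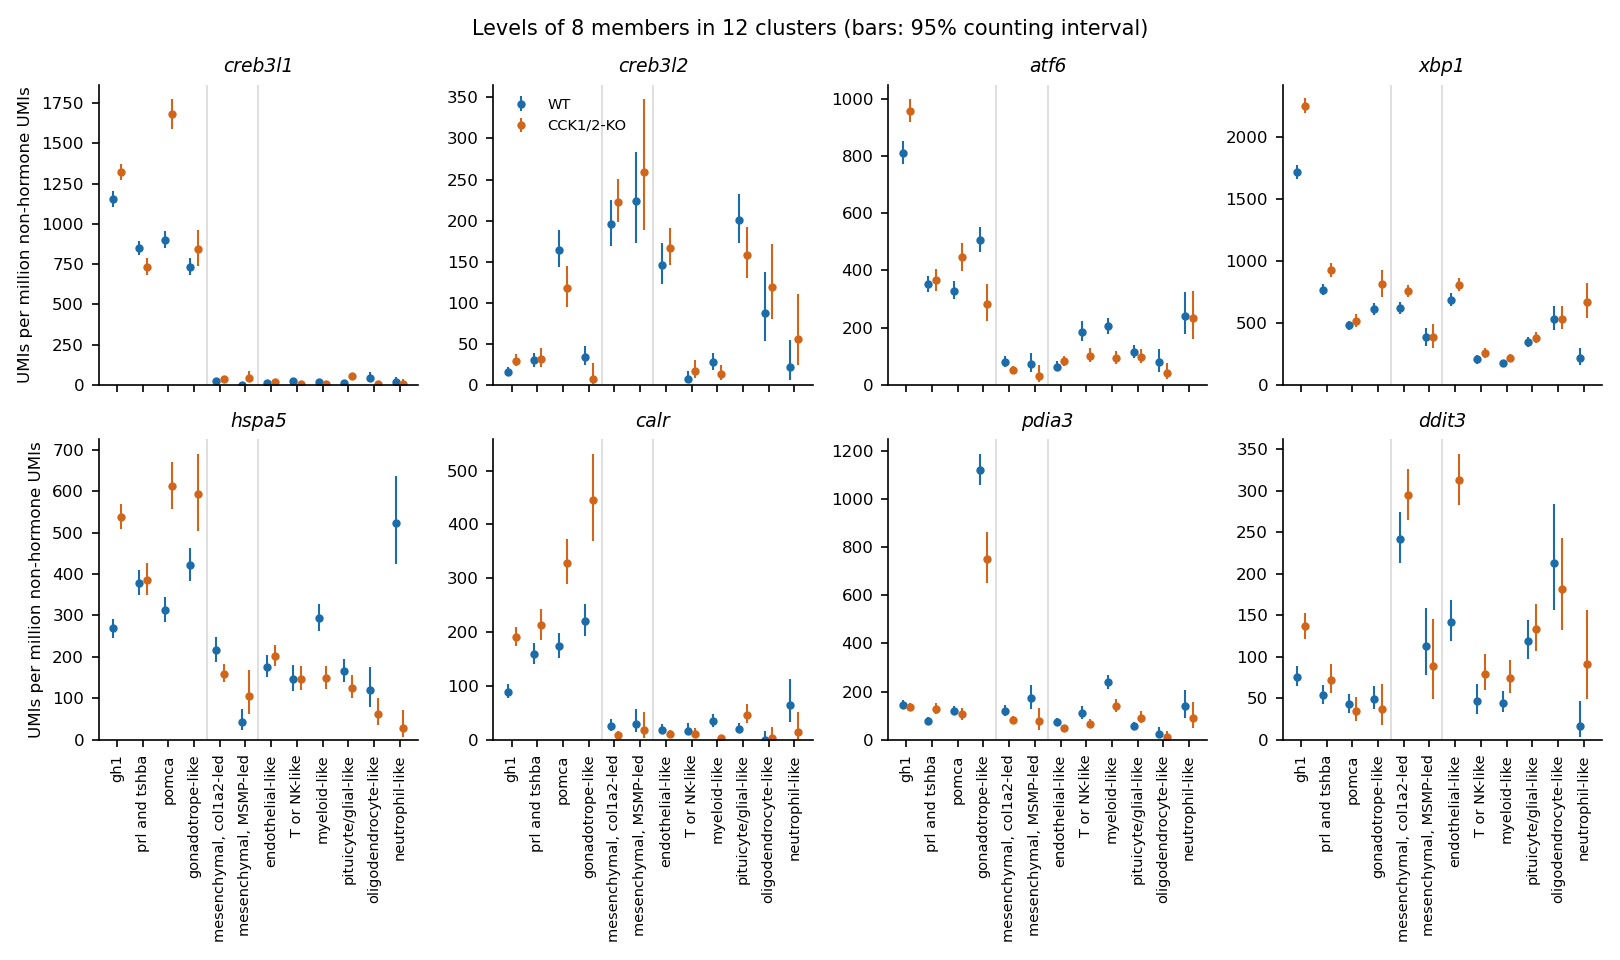
Level of 8 members in CPM across 12 clusters, with 95% counting intervals; blue is WT, orange CCK1/2-KO, and grey lines separate the hormone, mesenchymal-like and non-secretory clusters. creb3l1 is high in the 4 hormone clusters only, creb3l2 is high in mesenchymal-like, endothelial-like and pituicyte or glial-like cells and the pomca cluster, and pdia3 peaks in the gonadotrope-like cluster.

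atf6, the membrane-tethered sensor, was at 528 and 685 CPM in hormone cells against 142 and 94.0 in non-secretory cells, log2 ratios of 1.89 (1.76 to 2.02) and 2.87 (2.71 to 3.03). The gh1 cluster was highest (812 and 959). xbp1, whose mRNA is spliced by Ire1, was at 1000 and 1543 in hormone cells, 566 and 713 in mesenchymal-like cells and 362 and 489 in non-secretory cells, log2 ratios to the non-secretory cells of 1.46 (1.38 to 1.55) and 1.66 (1.58 to 1.73). Its level too was highest in the gh1 cluster (1718 and 2253) and fell to 479 and 518 in the pomca cluster, below the 686 and 808 of endothelial-like cells. These counts do not separate spliced from unspliced xbp1. EIF2AK3, the Perk gene in capitals, was at 38.95 and 70.22 in hormone cells against 20.5 and 16.1 in non-secretory cells.

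None of the remaining stress-related members was at least 2-fold higher in hormone cells. atf4a was at 544 and 435 CPM in hormone cells against 355 and 285 in non-secretory cells, log2 ratios of 0.62 (0.53 to 0.71) in WT and 0.61 (0.50 to 0.72) in CCK1/2-KO. atf4b was at 1157 and 1075 against 1052 and 1013, log2 ratios of 0.14 and 0.09. herpud1, a gene of ER-associated degradation, was the 1 member at least 2-fold lower in WT hormone cells, at 22.7 against 68.1, a log2 ratio of -1.58 (-1.89 to -1.28), and at 22.0 against 41.9 in CCK1/2-KO, -0.93 (-1.31 to -0.55). Its non-secretory level came from the T or NK cell-like (96.0 and 118), myeloid-like (133 and 31.2) and neutrophil-like clusters (140 and 183). ddit3 was at 58.2 and 97.1 in hormone cells, 92.9 and 173 in non-secretory cells and 213 and 270 in mesenchymal-like cells. The summed immediate-early genes, which cell dissociation can induce, were at 2955 and 4131 CPM in hormone cells, 12389 and 18759 in non-secretory cells and 28642 and 37072 in mesenchymal-like cells, so they moved in the same order as ddit3, and their part in its level was not tested.

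The second comparison set the mesenchymal-like cells, which secrete extracellular matrix, against the non-secretory cells. In WT, 2 members were at least 2-fold higher and 10 lower, where 12.9% and 35.2% of all genes were, and in CCK1/2-KO 1 was higher and 5 lower, where 13% and 35.1% were. The median log2 ratio of the members was -0.45 and -0.09, against -0.52 and -0.51 over all genes. creb3l2 was the 1 member higher in both libraries (log2 1.09 and 1.19), and ddit3 was past 2-fold in WT only, at 1.2 and 0.64, with the difference between the libraries not tested. ssr2 came next in WT at 0.65 and gave 0.92 in CCK1/2-KO. The lowest ratios in WT were those of dnajb11 (-2.21), manf (-1.79) and herpud1 (-1.44), which gave 0.05, -0.66 and -0.98 in CCK1/2-KO. The 2 members at least 2-fold lower in both libraries were canx (-1.33 and -1.76) and sdf2l1 (-1.37 and -1.50). In both libraries at once that is 1 member higher and 2 lower, where 8.46% and 23.6% of all genes were.

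Genes known for collagen folding were counted in the same cells. Of 13 such genes, 9 were at least 2-fold higher in WT mesenchymal-like than non-secretory cells, where 12.9% of all genes were, and 7 in CCK1/2-KO, where 13% were, and 0 were lower in either. The difference from the members was not tested. p4ha1b, a prolyl hydroxylase subunit gene, gave 2.64 in both libraries, and sparc, a collagen-binding matrix protein gene, 2.57 and 3.73. The p4hb product is also a subunit of that prolyl hydroxylase, and its log2 ratio was -0.14 and 0.08. The collagen I genes themselves were at 5655 CPM in WT and 22461 in CCK1/2-KO mesenchymal-like cells, while the summed member level was 6116 and 6290.

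Set directly against the mesenchymal-like cells, hormone cells had 26 members at least 2-fold higher in WT and 29 in CCK1/2-KO, and 2 lower in each, where 46.5% and 49.2% of all genes were higher and 14.9% and 15.6% lower. In both libraries at once 25 were higher and 2 lower, where 37.6% and 11.6% of all genes were. The median log2 ratio of the members was 1.26 and 1.60, against 0.87 and 0.98 over all genes. All 4 oligosaccharyltransferase genes, all 4 disulphide isomerases and 8 of 9 chaperones were among the 25, hspa5 being the exception with 0.92 in WT and 1.76 in CCK1/2-KO. After creb3l1, at 5.52 (4.98 to 6.12) in WT, where a single mesenchymal-like cell held 51.9% of its UMIs, the highest WT ratios were those of hyou1 (3.19), manf (2.81), dnajc3a (2.78) and atf6 (2.75). The lowest were those of creb3l2 (-1.89), ddit3 (-1.87) and atf4b (-0.28), and the 2 lower members were creb3l2 and ddit3.

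Lists of other genes of the pathway gave the following counts for hormone against non-secretory cells in both libraries. Of 70 other ER and early secretory genes tested, 17 were at least 2-fold higher and 5 lower, where 25.2% and 17.5% of all genes were. A count of 17 of 70 lies near the share of all genes and is not a result about these genes. The highest in WT were nucb2b (3.87), surf4l (2.39) and tusc3 (2.34), and the lowest fkbp14 (0 UMIs in WT hormone cells, 5.26 CPM in WT non-secretory cells), crtap (-4.59) and edem1 (-2.31). tusc3 and magt1 (-1.80 in WT) encode alternative subunits of the oligosaccharyltransferase. tusc3 was at 59.5 and 59.0 CPM in hormone cells against 11.8 and 6.06 in non-secretory cells, and magt1 at 10.4 and 11.2 against 36.3 and 41.6.

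The counts that follow stand against the same shares of all genes, 25.2% higher and 17.5% lower. Of 16 zebrafish relatives of the members, 4 were higher and 0 lower. The count of 4 of 16 lies near the share of all genes and is not a result about these relatives. The isomerase gene pdia8 had the highest WT ratio, with 94.3 and 40.0 CPM in hormone cells against 1.25 and 1.32 in non-secretory cells. Of 27 targets of Atf4, 14 were higher and 5 lower, from vldlr (3.35 in WT), asns (3.13) and eprs1 (2.43) down to slc3a2a (-5.79), ddit4 (-3.14) and cebpb (-3.14). Of 31 cytosolic chaperone genes, 4 were higher and 2 lower, from hspa8b (2.68), hspa1b (2.65) and dnaja2b (1.56) down to hspb8 (-4.35), hspb1 (-1.99) and hsp90aa1.1 (-0.78). Of 13 collagen folding genes, 2 were higher and 4 lower, from fkbp10b (1.95), serpinh1b (1.65) and p3h4 (1.64) down to sparc (-5.85), crtap (-4.59) and plod1a (-3.77).

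The hormone clusters differed among themselves. The gh1 cluster had the highest level of the 4 for 17 members in WT and 16 in CCK1/2-KO, 13 of them in both, among them xbp1, atf6, atf4a, atf4b, sec61b and sec61g. The gonadotrope-like cluster was highest for 16 and 11 members, 9 of them in both, among them pdia3, calr, hsp90b1 and herpud1. The pomca cluster was highest for 7 and 13 members, 5 of them in both, and the prl and tshba cluster for 1 and 1, with none shared. Among all 12 clusters, the neutrophil-like cluster was highest for 13 and 5 members, 5 of them in both. The gonadotrope-like cluster was highest there for 11 and 10, the gh1 cluster for 8 and 9 and the pomca cluster for 2 and 9. In the neutrophil-like cluster 1 WT cell held much of the member UMIs, as given above. How often any gene was highest in each of these clusters was not counted, so these counts are not a result about the members. Against the non-secretory cells of the same library, the gh1 cluster had 18 members at least 2-fold higher in WT and 27 in CCK1/2-KO, the gonadotrope-like cluster 14 and 25, the prl and tshba cluster 14 and 21, and the pomca cluster 10 and 26. Over all genes the shares were 24.3% and 29.7% for the gh1, 21.9% and 21.2% for the gonadotrope-like, 28.5% and 31.2% for the prl and tshba and 28.1% and 30.9% for the pomca cluster. These 8 comparisons share the non-secretory cells of their library.

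Within the gh1 cluster, cells with a larger share of hormone UMIs carried more member UMIs per non-hormone UMI. In WT the 57 cells with the lowest hormone share (median 11% of UMIs) had a summed member level of 9784 CPM and the 57 with the highest (median 37.8%) had 14979. In CCK1/2-KO the corresponding 54 cells had 11206 (median 4.88%) and 15883 (median 24.7%). Spearman's rho across cells was 0.57 in WT (173 cells) and 0.57 in CCK1/2-KO (163 cells), as a description only, since the cells share a library and both measures use the cell's non-hormone total. The correlation of the member level with depth was 0.20 and -0.06, and that of the hormone share with depth 0.46 and -0.14. Against the hormone share, other ER and early secretory genes gave 0.52 and 0.51, and cytosolic chaperones -0.32 and 0.41. In the other hormone clusters rho of the members was 0.32 and 0.59 (pomca), 0.41 and 0.22 (gonadotrope-like) and 0.08 and 0.18 (prl and tshba), over as few as 16 cells. For cytosolic chaperones the same clusters gave 0.18 and 0.07, -0.50 and -0.05, and 0.63 and 0.67.

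**Figure D3:**
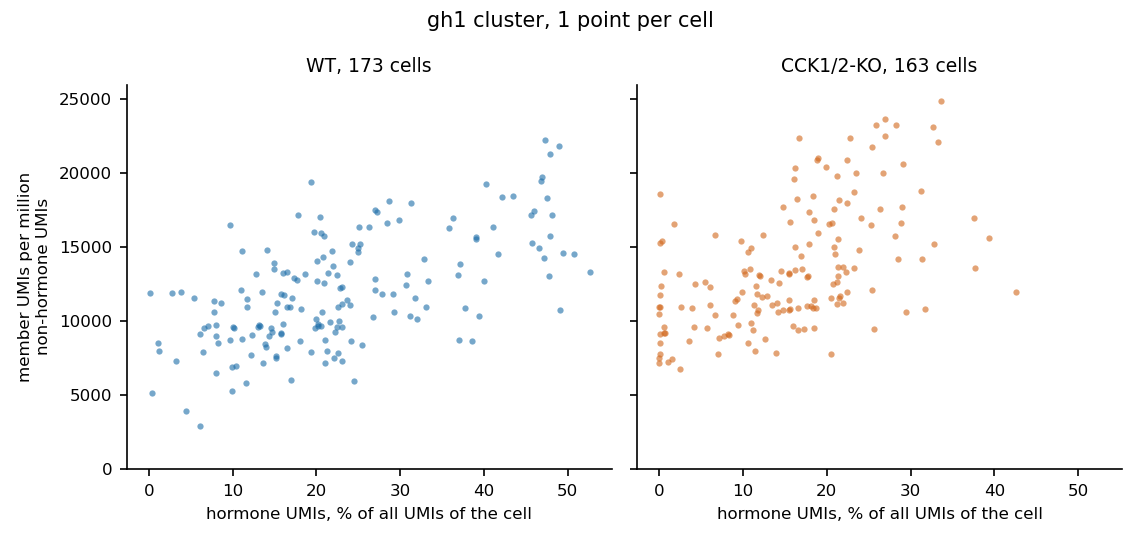
Summed member CPM against the hormone share of all UMIs, 1 point for each cell of the gh1 cluster with at least 1000 non-hormone UMIs, WT left (173 cells) and CCK1/2-KO right (163 cells). The cloud rises in both panels (Spearman's rho 0.57 and 0.57).

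The last comparison asked whether loss of both cholecystokinin genes went with a different level of the members in hormone cells. Of the 41 members, 0 were at least 2-fold higher and 0 at least 2-fold lower in CCK1/2-KO hormone cells, where 7.17% and 7.35% of all genes were. The median log2 ratio was 0.06, against 0.01 over all genes. The highest ratios were those of ssr1 (0.80, 0.39 to 1.22), ddit3 (0.74, 0.53 to 0.95), calr (0.66, 0.53 to 0.79), hspa5 (0.63, 0.54 to 0.72) and xbp1 (0.63, 0.58 to 0.68). The lowest were those of pdia3 (-0.78, -0.90 to -0.65), spcs3 (-0.48), ostc (-0.40), ssr2 (-0.37) and srp9 (-0.34). The pooled rise of ddit3 was not shared by all hormone clusters, and that of xbp1 was larger than in any single hormone cluster, as given below. The rises of ddit3 and xbp1 were also not particular to hormone cells. In mesenchymal-like cells the ratio was 0.34 for ddit3, 0.33 for xbp1 and 0.36 for ssr1, but -0.21 for hspa5 and -1.43 for calr. In endothelial-like cells it was 1.14 for ddit3, 0.24 for xbp1, 0.20 for hspa5 and -0.76 for calr, with ssr1 under the UMI minimum. In red blood cell-like cells it was 0.54 for hspa5 (0.10 to 0.97), at low levels of 17.7 CPM in WT and 25.6 in CCK1/2-KO. There it was 0.43 for ddit3, 0.22 for xbp1, 1.28 for ssr1 and -0.46 for calr. With 1 library for each genotype, the genotype and the library cannot be told apart.

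Because the class held 110 WT but only 20 CCK1/2-KO gonadotrope-like cells, the clusters were also compared one by one. pdia3, the lowest in the pooled class, gave -0.58 (-0.80 to -0.36) in the gonadotrope-like cluster, -0.09 in the gh1, -0.17 in the pomca and 0.69 in the prl and tshba cluster. xbp1 was between 0.11 and 0.40 in each, below its pooled 0.63. The gh1 cluster, where xbp1 was highest, held 176 WT and 173 CCK1/2-KO cells. Each other hormone cluster held fewer CCK1/2-KO than WT cells, so the pooled ratio also carries the make-up of the class. ddit3 was at 75.9 CPM in WT and 137 in CCK1/2-KO in the gh1 cluster, and at 54.1 and 72.1 in the prl and tshba cluster. In the pomca cluster ddit3 was lower in CCK1/2-KO (42.5 and 34.8). The same held in the gonadotrope-like cluster (49.5 and 36.8, on 51 WT and 10 CCK1/2-KO UMIs). hspa5 was at 269 CPM in WT and 538 in CCK1/2-KO in the gh1 cluster (log2 1.00, 0.85 to 1.15) and at 313 and 613 in the pomca cluster (0.97, 0.77 to 1.17). It was at 422 and 592 in the gonadotrope-like cluster, but at 378 and 386 in the prl and tshba cluster (0.03, -0.16 to 0.21). calr gave 1.1 (gh1), 0.91 (pomca), 1.01 (gonadotrope-like) and 0.42 (prl and tshba), and hsp90b1 0.80, 0.67, 0.83 and 0.50.

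In the gh1 cluster 3 members were at least 2-fold higher, hspa5, calr and herpud1, and 1 was lower, spcs3 (-1.01), where 11.8% and 8.28% of all genes were. herpud1 rested on 20 WT and 46 CCK1/2-KO UMIs. EIF2AK3 gave 1.60 (1.14 to 2.08) in the gh1 and 1.85 in the pomca cluster, and -0.21 in the prl and tshba cluster. In the gonadotrope-like cluster EIF2AK3 was at 84.4 CPM in WT and 140 in CCK1/2-KO. creb3l1 gave 0.90 (0.78 to 1.02) in the pomca cluster 0.20 in the gh1 and gonadotrope-like clusters and -0.21 (-0.34 to -0.08) in the prl and tshba cluster.

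Outside the hormone cells the counts differed by cluster. In non-secretory cells 0 members were at least 2-fold higher and 10 lower, where 5.79% and 9.72% of all genes were, and the median log2 ratio was -0.60, against -0.07 over all genes. The 10 were canx, pdia4, pdia6, dnajb11, manf, sdf2l1, hyou1, ostc, rpn2 and srp9, from -1.01 (srp9) to -2.20 (dnajb11, -2.70 to -1.72). Without the myeloid-like cluster, left out after seeing the data, 1 member instead of 10 was at least 2-fold lower, where 8.84% of all genes were, and the median was -0.35. Leaving out any other cluster of the class gave between 7 and 12. The myeloid-like cluster itself had 19 of 39 members tested at least 2-fold lower, where 19.1% of all genes were, and a median of -0.99. pdia6 was at 156 CPM there in WT and 9.10 in CCK1/2-KO. In that cluster the median depth was 1465 UMIs in WT and 4947 in CCK1/2-KO, and the part of depth or of a different make-up of the cluster was not tested.

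The same count was 9 of 34 in the T or NK cell-like cluster (13.7% of all genes), 2 of 36 in the endothelial-like (9.22%) and 2 of 35 in the pituicyte or glial-like cluster (12.7%), the last pair of shares below those of all genes. In the endothelial-like cluster ddit3 (1.14, 0.85 to 1.43, on 138 WT and 400 CCK1/2-KO UMIs) and rpn2 (1.12, -0.18 to 2.60) were at least 2-fold higher. rpn2 rested on 7 WT and 20 CCK1/2-KO UMIs there, and its interval includes 0. The share of all genes higher there is not given. In the neutrophil-like cluster 12 of 31 members tested were at least 2-fold lower (13% of all genes) and 2 higher. That cluster had 40 WT and 22 CCK1/2-KO cells with median depths of 891 and 5974 UMIs, and 1 WT cell held 76.3% of the 97 WT UMIs of hspa5, which gave the lowest log2 ratio there (-4.21, on 4 CCK1/2-KO UMIs). The limit is not confined to hspa5, since 1 WT cell held 784 of the 1596 member UMIs of the cluster. Among the lower members, a single WT cell held 77.8% of the WT UMIs of manf, 65.7% of rpn1 and 62.2% of sec11a. For dnajb11 and ostc that share was 31.6% and 33.3%. The count of lower members without that cell is not given. In the oligodendrocyte-like cluster 0 of 14 were lower (8.74%) and 1 higher. For the neutrophil-like and oligodendrocyte-like clusters the shares of all genes higher are not given, so their counts of higher members are not a result about the members. In mesenchymal-like cells 6 of 40 members were at least 2-fold lower and 0 higher, where 12.2% and 9.25% of all genes were, among them canx (-1.69) and calr (-1.43), the latter on 35 and 14 UMIs. Hormone to non-secretory ratios higher in CCK1/2-KO than in WT therefore came with lower non-secretory levels for the 10 members above and hspa5. The level in hormone cells was also higher for hspa5 (0.63) and, of the 10, for pdia6 (0.45), hyou1 (0.24) and rpn2 (0.27), with counting intervals above 0. The lower non-secretory level of hspa5 was not shared by all clusters of the class. hspa5 gave -0.99 in the myeloid-like, -0.96 in the oligodendrocyte-like and -4.21 in the neutrophil-like cluster. It gave -0.005 in the T or NK cell-like and 0.20 in the endothelial-like cluster.

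**Figure D4:**
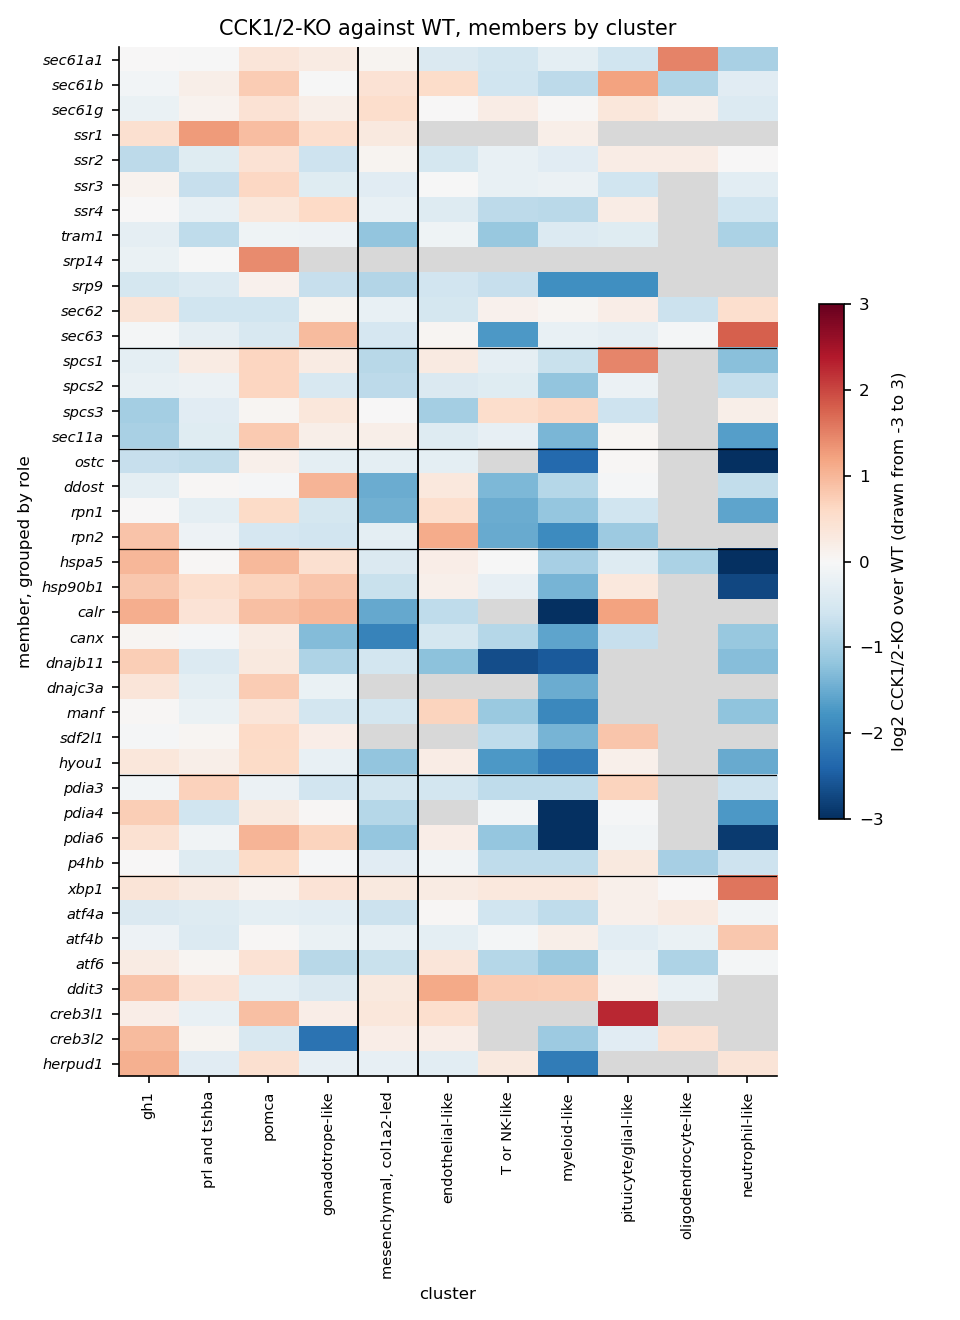
log2 ratio of CCK1/2-KO to WT for each member (rows, by role) in 11 clusters (columns), red higher and blue lower in CCK1/2-KO, colours drawn from -3 to 3, grey where the 20 UMI minimum was not met. hspa5, hsp90b1 and calr are red across most hormone clusters, and the blue fields gather in the myeloid-like, T or NK cell-like and neutrophil-like columns.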

How the data were processed

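The deposited files hold UMI counts per gene and cell barcode for 1 WT and 1 CCK1/2-KO pituitary library, which the authors made from droplet reads, with Cell Ranger, Seurat and the genome build GRCz11 named in the submitters' processing notes. No normalization had been applied. The WT library had 5236 barcodes with 22358017 UMIs and the CCK1/2-KO library 3755 with 15910570. The barcodes in the files are 20 bases long, although the labels describe a shorter barcode, and 11 barcodes occur in both libraries.

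The filter on genes per cell (at least 200) took out 154 and 192 barcodes and the filter on mitochondrial share (at most 20%) took out 12 and 4. An automatic Scrublet threshold marked 1 and 0 cells, so the top scores were removed instead, at 0.8% per 1000 barcodes (212 and 107). Cells were clustered (scanpy 1.11.5, 2000 variable genes, 30 principal components, 20 neighbours, Leiden resolution 1) without hormone genes, mitochondrial genes, members and their relatives. This gave 29 clusters. A cluster was named from listed markers, with at least 3 detected and a median of at least 1000 UMIs, and hormone clusters had a median of at least 2000 UMIs and a hormone gene at or above 1000 UMIs per 1000000.

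Counts were summed per class and library and divided by the non-hormone total (UMIs per 1000000, CPM). Ratios have exact conditional intervals and levels exact Poisson intervals, and UMIs lost before counting are not covered. A member was called at 2-fold with at least 20 UMIs over both groups. The interval method was tested on simulated data. Shares were also computed at an equal depth of 1000 non-hormone UMIs, leaving out shallower cells, which kept 534 WT and 300 CCK1/2-KO hormone cells, 137 and 180 mesenchymal-like cells and 489 and 487 non-secretory cells. No p-values were computed.

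Members and lists were chosen with earlier results of these data known. Values are given in full for the 3 highest and 3 lowest WT ratios of each class comparison, the 5 highest and 5 lowest CCK1/2-KO ratios in hormone cells, among members with at least 50 UMIs and at most 20% of a library's UMIs in 1 cell, and for the sensors and markers of the unfolded protein response; other genes were named after their values were seen. Alternatives covered filters, clustering, totals, weights, thresholds and classes. No sequences are printed.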

Additional observations from a re-analysis of the deposited data

Results flagged for a closer look

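For 6 members the CCK1/2-KO to WT ratio was at least 2-fold lower in non-secretory cells and not lower in hormone cells. The difference was not tested, since each genotype is 1 library. The log2 ratios in non-secretory and hormone cells were -1.65 and 0.45 for pdia6. They were -2.20 and 0.06 for dnajb11, -1.24 and 0.03 for manf, and -1.08 and 0.06 for sdf2l1, and for these 3 the counting interval in hormone cells includes 0. hyou1 gave -1.34 and 0.24, and rpn2 -1.09 and 0.27. The share of all genes with this pattern is not given, so the count is not a result about the members. The lower non-secretory levels also depend on the myeloid-like cluster. Without it, 1 member instead of 10 was at least 2-fold lower in non-secretory cells.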

How the results depend on the processing

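No paired analysis was possible because each genotype has 1 library. The 15 members at least 2-fold higher in hormone than non-secretory cells in both libraries became 9 with hormone genes kept in the total, 9 with clusters at equal weight, 26 at a 1.5-fold threshold and 33 with red blood cell-like clusters added. Under the other alternatives named beforehand the count lay between 10 and 17. The 1 member higher in mesenchymal-like cells became 3 at Leiden resolution 0.5 and 4 at 1.5-fold. The 2 members lower in hormone than mesenchymal-like cells stayed 2 under each alternative run. The count of 0 members past 2-fold between the libraries in hormone cells became 6 at 1.5-fold, 4 in the gh1 cluster alone, 1 in the prl and tshba cluster, 2 in the pomca cluster and 4 in the gonadotrope-like cluster. The 10 members lower in CCK1/2-KO than WT non-secretory cells became 1 without the myeloid-like cluster. The mean share of WT hormone cells with a UMI of a member went from 46.1% to 15.4% at 1000 non-hormone UMIs. The WT log2 ratio of pdia3 to non-secretory cells turned to -0.61 with the prl and tshba cluster as the only hormone cluster, to -0.034 with the pomca cluster and to -0.065 without the gonadotrope-like cluster, where its ratio to mesenchymal-like cells was -0.19. With the pomca cluster alone that of creb3l2 turned from -0.80 to 0.80 in WT and from -1.18 to 0.24 in CCK1/2-KO. Alternatives that leave out 1 cluster were chosen after seeing the data. Shares of all genes are not given beside the counts in this paragraph. The counts therefore show only how the calls depend on the settings and are not a result about the members. Depth limits the members of low level: srp14 and ssr1 were under 30 CPM in each class, and most clusters outside the hormone class could not test all members.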

Other observations

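A cluster led by stra6, a retinol receptor gene, entered no class. Its summed member level was 5598 CPM in WT (64 cells) and 6504 in CCK1/2-KO (37 cells), below each hormone cluster of the same library. A cluster led by col2a1a, the cartilage collagen gene, had 7293 (11 cells) and 8475 (16 cells). A shallow cluster led by tshba, with median depths of 741 and 669.5 UMIs, had 9438 (446 cells) and 8607 (274 cells). A cluster of 6 WT and 6 CCK1/2-KO cells led by an unnamed gene had 14346 and 7611, the highest WT value of any cluster. There 1 WT cell held 581 of 1011 member UMIs, and the level without it was 9533.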
